A study of Mus musculus with 16 samples.

Results

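The 10 genes described here encode enzymes that turn arachidonic acid into prostaglandins and leukotrienes, or that remove prostaglandins. They were taken by name as listed rows of the symbol column, and each matched 1 of the 24001 rows of the deposited expression table. Ptgs1, Ptgs2, Ptges, Hpgds and Hpgd belong to the prostaglandin branch, and Alox5, Alox5ap, Lta4h, Ltc4s and Alox15 to the lipoxygenase branch. Of the 10, 8 reached 1 FPKM (fragments per kilobase per M of mapped fragments, where M is mega) in at least 2 libraries and were tested, and Hpgd and Alox15 did not.

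Arachidonic acid is freed from membrane lipids by phospholipases and then enters competing routes. Cyclooxygenases convert it to prostaglandin H2, from which terminal synthases make prostaglandin E2 or D2, and 5-lipoxygenase with its activating protein makes leukotriene A4, which is turned into leukotriene B4 or C4. In dendritic cells these lipids are known to act on migration, maturation and the cytokines released after Toll-like receptor (TLR) stimulation.

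RNA-seq was done on dendritic cells grown from bone marrow of NZM2410 mice, an inbred lupus-prone strain. All cultures were kept in 20 ng/ml GM-CSF with 10 ng/ml IL-4 and harvested on day 7, after 24 h with loxoribine and CpG, agonists of TLR7 and TLR9, or with vehicle. The agonist doses in the labels are 1 μg/ml CpG and 200 μmol/ml loxoribine, and the unit of the loxoribine dose could not be checked. The groups follow the source labels, with an agonist and a vehicle group of 2 libraries in each of 4 arms, 16 libraries in all. By these labels Ex3a OVX carries a null allele of Esr1, the gene for estrogen receptor α (ERα), and ERKO OVX an allele called ERα short, which gives a truncated receptor. Mice of these 2 arms were ovariectomized at 4 to 8 weeks of age and given a 90-day pellet with 0.25 mg of estradiol. The KO arm carries ERα short and the WT arm the intact receptor, and neither had surgery. The genotype labels contradict the source labels. They give both groups of Ex3a OVX as Esr1(tm1Ksk), a short allele, and the vehicle groups of ERKO OVX and KO as Esr1(tm4.2Ksk), a null allele. The arms are therefore named by their source labels. The series title speaks of a conditional knockout in CD11c+ cells, and no Cre driver is named in the labels of these samples. The sources used here give no age at harvest.

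Esr1 had 0.283 to 0.364 FPKM in Ex3a OVX, 0.982 to 1.16 in ERKO OVX, 1.77 to 2.57 in KO and 0.684 to 1.38 in WT, and summed reads do not tell its alleles apart. Estimated depth was 17.8 to 24.0 M fragments in ovariectomized libraries and 37.4 to 44.0 M in unoperated ones, so ovariectomy with estradiol and depth cannot be told apart. Within each ovariectomized group the 2 libraries differed by no more than sampling noise. They were averaged and counted as 1 sample, and their tests assume that they vary like the unoperated groups. Whether the libraries of a group stem from different animals or cultures is not stated in the sources used here. The p-values thus reflect only the spread between libraries, which may be technical. Summed dendritic cell markers (10 genes) reached 8391 to 10732 FPKM in ovariectomized and 5437 to 6914 FPKM in unoperated libraries, and most of each sum was Cd74 and H2-Ab1 of antigen presentation. Itgax, which encodes CD11c, had group means of 86.2 to 154 FPKM, and Flt3 was low, at 1.28 to 3.93 FPKM. Flt3 and 5 other markers of the list went against the sum and were lower in every ovariectomized than in every unoperated group. Among them, group means of Ccr7 were 207 to 505 FPKM in ovariectomized and 1120 to 2180 FPKM in unoperated groups, those of Irf4 8.68 to 26.3 and 70 to 103 FPKM, those of Zbtb46 2.76 to 4.42 and 13.4 to 26.8 FPKM, and those of Cd83 60 to 78.4 and 132 to 186 FPKM. In bulk RNA, fewer cells of a type and less RNA per cell cannot be told apart.

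The 250 bases before an annotated start of Ptgs2, Ptges and Ptgs1 are shown. Ptgs2 and Ptges were chosen because they rose with the agonists in ERKO OVX, KO and WT while Ptgs1, which encodes the other cyclooxygenase, fell. They are RefSeq sequences on GRCm38.p6, whose coordinates are those of mm10, and read 5′ to 3′ on the strand of the gene. They lie at chr1:150099781-150100030 (plus strand), chr2:30903298-30903547 (minus strand) and chr2:36230176-36230425 (plus strand). Capitals mark a TTCNNNNGAA palindrome, the spacing bound by STAT6, the factor that IL-4 activates.
Ptgs2: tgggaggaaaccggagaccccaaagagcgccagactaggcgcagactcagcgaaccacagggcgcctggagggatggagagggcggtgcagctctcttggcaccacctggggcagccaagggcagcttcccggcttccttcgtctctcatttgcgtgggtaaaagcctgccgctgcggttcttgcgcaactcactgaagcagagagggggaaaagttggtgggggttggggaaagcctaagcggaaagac
Ptges: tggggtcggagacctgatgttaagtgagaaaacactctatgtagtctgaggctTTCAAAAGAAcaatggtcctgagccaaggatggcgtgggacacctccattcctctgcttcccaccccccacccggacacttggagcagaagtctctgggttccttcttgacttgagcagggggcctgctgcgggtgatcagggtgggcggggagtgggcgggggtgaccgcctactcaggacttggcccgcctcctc
Ptgs1: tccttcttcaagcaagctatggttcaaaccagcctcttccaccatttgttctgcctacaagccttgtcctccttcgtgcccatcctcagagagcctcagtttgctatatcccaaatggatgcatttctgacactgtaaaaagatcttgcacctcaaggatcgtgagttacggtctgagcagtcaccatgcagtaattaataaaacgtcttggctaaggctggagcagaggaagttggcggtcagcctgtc

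The promoter table held 8 of the 10 genes. In windows of 300 bases (250 before and 50 after the start), searched on both strands, the palindrome was found in Ptges alone, at positions -197 to -188, and in 6.95% of all 32851 promoters. An E-box (CACGTG) was present in Ptgs2 at +17 to +22 (7.15% of all promoters), and a TATA box (TATAAA) in Hpgd at +5 to +10 (13.6%). No promoter of the 8 held the NF-kB consensus (4.51% of all), the cyclic AMP response element TGACGTCA (1.79%), the AP-1 site TGANTCA (7.81%) or the estrogen response element, GGTCA and TGACC spaced by 3 bases (0.07%). The 250 bases shown for Ptgs2, which end before its annotated span, overlap an annotated exon of the gene Ptgs2os. Those shown for Ptges and Ptgs1 lie within the annotated spans of these genes. Other starts of the genes were not searched.

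**Figure D1:**
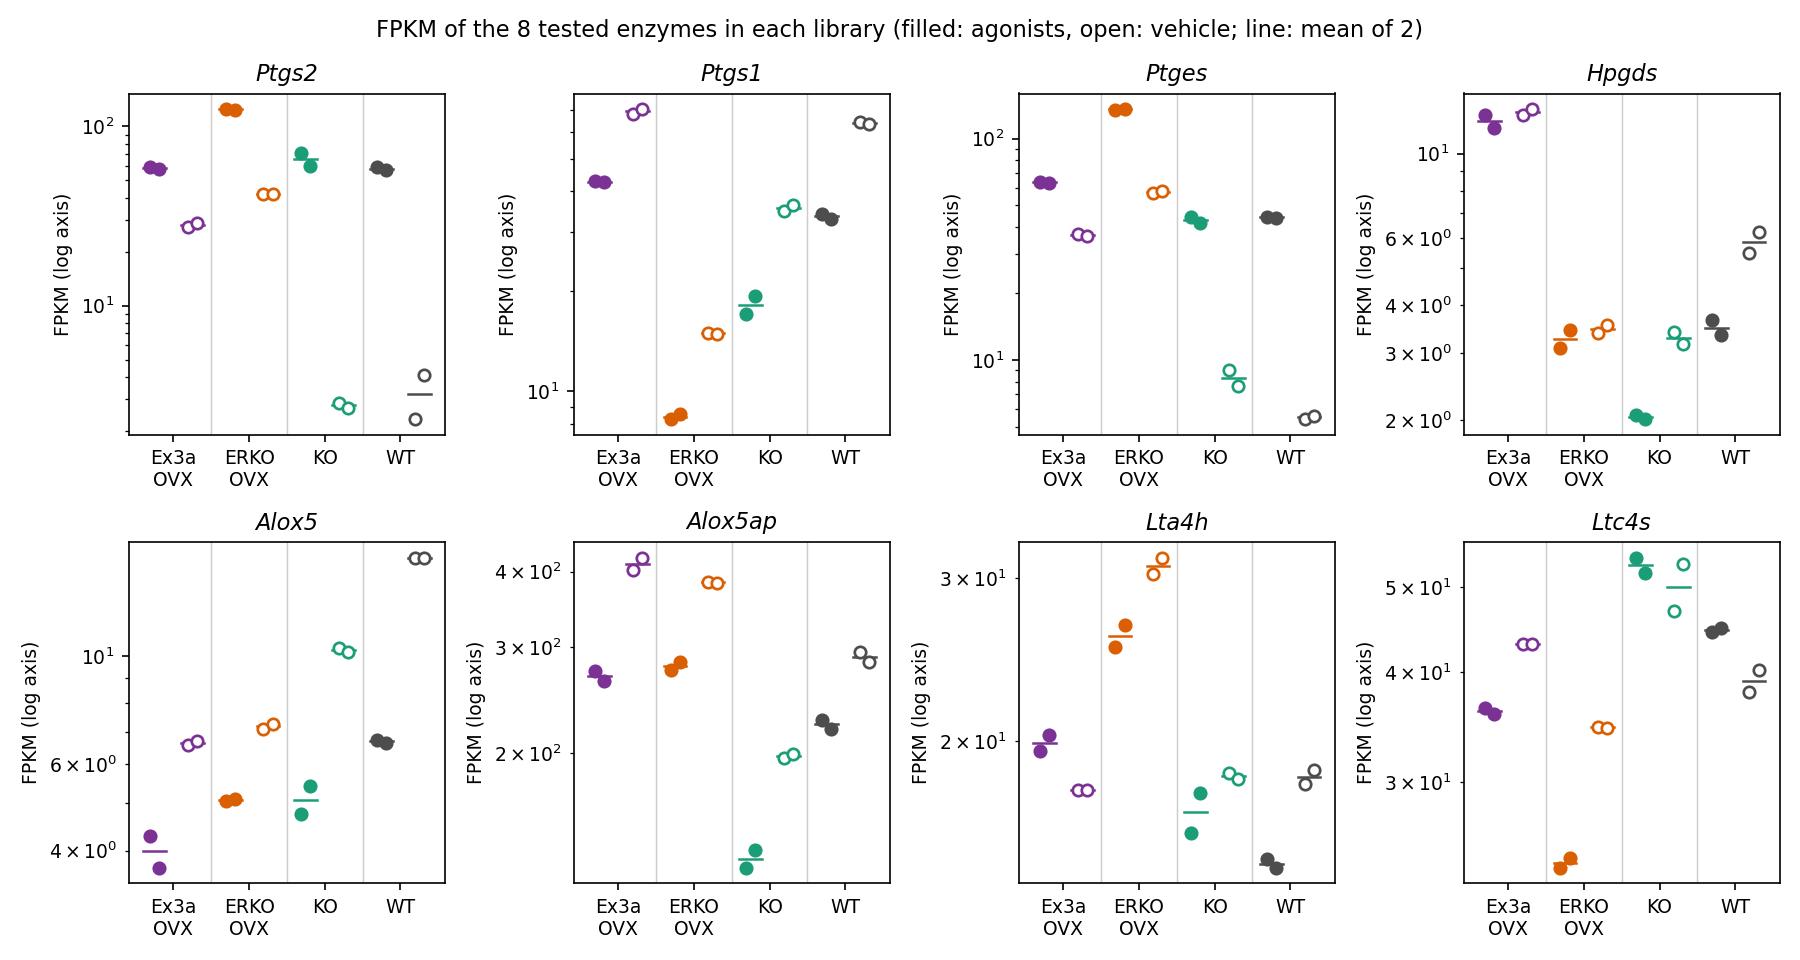
FPKM of the 8 tested genes in each of the 16 libraries, on log axes that differ between panels. Filled points are agonist and open points vehicle libraries, and lines are the mean of 2; Ptgs2 ranges over 2.33 to 125 FPKM, and the highest Ptgs1 values are those of Ex3a OVX and WT vehicle.

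Alox5ap was the highest of the 10 genes in all 8 groups, and Alox15 and Hpgd were the lowest. The next place changed with treatment and arm. With agonists it was held by Ptges in both ovariectomized arms and by Ptgs2 in KO and WT. In vehicle libraries it was held by Ptgs1 in Ex3a OVX and WT, by Ptges in ERKO OVX and by Ltc4s in KO. The ratio of the highest to the lowest group mean was 44.4 for Ptgs2, 24.5 for Ptges, 8.25 for Ptgs1 and 6.35 for Hpgds, and lay between 2.09 and 3.98 for the other 4 tested genes.

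Ptgs2 (Entrez 19225, chr1:150100031-150108234), the inducible cyclooxygenase COX-2, was measured at 59.3 and 57.6 FPKM with agonists and 27.4 and 28.8 FPKM with vehicle in Ex3a OVX. In ERKO OVX it was at 125 and 124 FPKM with agonists and 42 and 41.9 FPKM with vehicle. In KO it was at 71.2 and 60.2 FPKM with agonists and 2.88 and 2.69 FPKM with vehicle, and in WT at 59.2 and 56.9 FPKM with agonists and 2.33 and 4.11 FPKM with vehicle. Agonist libraries lay above vehicle libraries in every arm, and every ovariectomized vehicle library lay above every unoperated vehicle library. The agonist groups of Ex3a OVX and WT overlapped, as did the vehicle groups of KO and WT.

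Ptges (Entrez 64292, chr2:30889471-30931020), the microsomal synthase that makes prostaglandin E2 downstream of COX-2, gave 63.6 and 63.1 FPKM with agonists and 36.9 and 36.5 FPKM with vehicle in Ex3a OVX. ERKO OVX libraries held 135 and 136 FPKM with agonists and 56.7 and 58 FPKM with vehicle. KO libraries held 44.4 and 41.5 FPKM with agonists and 8.98 and 7.67 FPKM with vehicle, and WT libraries 44.4 and 43.8 FPKM with agonists and 5.41 and 5.61 FPKM with vehicle. As for Ptgs2, agonist libraries were higher in each arm and ERKO OVX was the highest arm. Among neighbours in the order of groups, only the agonist groups of WT and KO overlapped.

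Ptgs1 (Entrez 19224, chr2:36216742-36258593), the constitutive cyclooxygenase COX-1, ran the other way. It was at 42.8 and 42.5 FPKM with agonists and 68.2 and 70.4 FPKM with vehicle in Ex3a OVX, and at 8.26 and 8.55 FPKM with agonists and 15 and 14.9 FPKM with vehicle in ERKO OVX. Among unoperated libraries it was at 17.1 and 19.3 FPKM with agonists and 34.8 and 36.2 FPKM with vehicle in KO, and at 34.1 and 33 FPKM with agonists and 64.3 and 63.3 FPKM with vehicle in WT. No neighbouring groups overlapped in the order Ex3a OVX vehicle, WT vehicle, Ex3a OVX agonist, KO vehicle, WT agonist, KO agonist, ERKO OVX vehicle, ERKO OVX agonist.

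Hpgds (Entrez 54486, chr6:65117293-65144981), the hematopoietic synthase of prostaglandin D2, was highest in Ex3a OVX, at 12.6 and 11.7 FPKM with agonists and 12.6 and 13.1 FPKM with vehicle. The other values were 3.09 and 3.45 FPKM with agonists and 3.38 and 3.55 FPKM with vehicle in ERKO OVX, 2.06 and 2.01 FPKM with agonists and 3.41 and 3.17 FPKM with vehicle in KO, and 3.65 and 3.34 FPKM with agonists and 5.48 and 6.23 FPKM with vehicle in WT. The 2 Ex3a OVX groups overlapped each other and lay above every other library. Hpgd (Entrez 15446, chr8:56294552-56321046), the dehydrogenase that inactivates prostaglandins, was listed at 0 in 13 libraries. Its other values were 0.0258 FPKM in 1 Ex3a OVX vehicle library and 0.0514 and 0.025 FPKM in ERKO OVX vehicle libraries, which come to about 1 or 2 fragments each. A count of 0 allows up to 0.041 to 0.1 FPKM of Hpgd at 3 fragments in these libraries, for counting error only.

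Alox5 (Entrez 11689, chr6:116410071-116461178) encodes 5-lipoxygenase, which starts leukotriene synthesis. It was at 4.29 and 3.69 FPKM with agonists and 6.59 and 6.7 FPKM with vehicle in Ex3a OVX, and at 5.05 and 5.1 FPKM with agonists and 7.1 and 7.25 FPKM with vehicle in ERKO OVX. It was at 4.76 and 5.41 FPKM with agonists and 10.4 and 10.2 FPKM with vehicle in KO, and at 6.74 and 6.65 FPKM with agonists and 15.9 FPKM in both vehicle libraries of WT. Vehicle libraries lay above agonist libraries within every arm, and WT vehicle was the highest group. Alox5ap (Entrez 11690, chr5:149265004-149288153), the membrane protein FLAP that presents arachidonic acid to 5-lipoxygenase, was at 273 and 263 FPKM with agonists and 402 and 422 FPKM with vehicle in Ex3a OVX, and at 275 and 283 FPKM with agonists and 385 and 383 FPKM with vehicle in ERKO OVX. It was at 129 and 138 FPKM with agonists and 196 and 199 FPKM with vehicle in KO, and at 227 and 219 FPKM with agonists and 294 and 283 FPKM with vehicle in WT. Here too vehicle exceeded agonist libraries in each arm, and KO was the lowest arm in both treatments.

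Lta4h (Entrez 16993, chr10:93453396-93484896), the hydrolase that makes leukotriene B4, was highest in ERKO OVX, at 25.3 and 26.7 FPKM with agonists and 30.3 and 31.6 FPKM with vehicle. The other 12 libraries lay between 14.6 and 20.3 FPKM. Among them, Ex3a OVX was at 19.5 and 20.3 FPKM with agonists and 17.7 FPKM in both vehicle libraries, the reverse of the order in the other 3 arms. Ltc4s (Entrez 17001, chr11:50236461-50238532), the synthase of leukotriene C4, was highest in KO, at 54 and 51.8 FPKM with agonists and 46.9 and 53.1 FPKM with vehicle, which overlapped. It was lowest in ERKO OVX, at 24 and 24.6 FPKM with agonists and 34.7 and 34.6 FPKM with vehicle. Ex3a OVX held 36.4 and 35.9 FPKM with agonists and 43.1 FPKM in both vehicle libraries, and WT held 44.5 and 44.9 FPKM with agonists and 38 and 40.2 FPKM with vehicle. Alox15 (Entrez 11687, chr11:70344147-70390538), a lipoxygenase known in mice from eosinophils and resident peritoneal macrophages, did not exceed 0.334 FPKM in any library. It was at 0.141 and 0.169 FPKM in WT agonist libraries, against 0.245 and 0.334 FPKM, its highest values, in WT vehicle libraries, and it was listed at 0 in 1 Ex3a OVX agonist library. Eosinophil markers (5 genes) summed to 0.839 to 2.76 FPKM over all libraries.

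With agonists, the cyclooxygenase Ptgs2 and the synthase Ptges rose and Ptgs1, Alox5 and Alox5ap fell in the unoperated arms and in ERKO OVX. Ex3a OVX had the same signs, with Ptges, Ptgs1, Alox5 and Alox5ap past the test and Ptgs2 just short of it. Among the 8 tested genes, at an adjusted p under 0.05, 1 rose and 4 fell in Ex3a OVX, where 19.1% of all tested genes rose and 18.2% fell. In ERKO OVX 2 rose and 5 fell (18.4% and 19.2% of all tested genes). In KO 2 rose and 5 fell (25.9% and 25.3%), and in WT 3 rose and 5 fell (30.8% and 27.1%). The median log2 fold change of the 8 genes was -0.16, -0.34, -0.31 and -0.33 in Ex3a OVX, ERKO OVX, KO and WT in that order, against 0.00 to 0.02 over all tested genes.

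Log2 fold changes here are on the log2(FPKM + 1) scale with limma's standard error, and that scale understates the change of low genes. Fold values throughout are these changes off the log scale, so they are ratios of FPKM + 1 and not of FPKM. The largest changes were those of Ptgs2. Its standard error in the ovariectomized arms was taken from the spread of unoperated libraries, where Ptgs2 was at 2.33 and 4.11 FPKM in WT vehicle. In Ex3a OVX its log2 difference was 1.03 ± 0.30 with an adjusted p of 0.0519, and without Ex3a OVX agonist replicate 2 or vehicle replicate 2 the adjusted p was 0.0471 or 0.0465, in a range of 5.90e-09 to 0.0990 over 14 alternative fits. In ERKO OVX it rose by 1.55 ± 0.30 (adjusted p = 0.0154), 2.92-fold. In KO it rose by 4.14 ± 0.21 (5.54e-05), 17.6-fold, and no tested gene changed more. In WT it rose by 3.84 ± 0.21 (6.30e-05), 14.3-fold, the 3rd largest absolute change of all tested genes there. Ptges rose by 0.77 ± 0.08 in Ex3a OVX (0.000116), 1.22 ± 0.08 in ERKO OVX (1.37e-05), 2.24 ± 0.06 in KO (3.88e-09) and 2.79 ± 0.06 in WT (5.51e-10), which is 1.71-, 2.34-, 4.72- and 6.93-fold.

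Ptgs1 fell by 0.69 ± 0.07 in Ex3a OVX, 0.76 ± 0.07 in ERKO OVX, 0.93 ± 0.05 in KO and 0.91 ± 0.05 in WT on the log2 scale, with adjusted p of 6.95e-05, 5.60e-05, 2.17e-07 and 1.95e-07. These falls correspond to 1.61- to 1.90-fold. Hpgds had log2 differences of -0.08 ± 0.09 in Ex3a OVX (adjusted p = 0.511, 95% interval -0.27 to 0.12) and -0.06 ± 0.09 in ERKO OVX (0.594, -0.26 to 0.13). It fell in KO (log2 fold change -0.50 ± 0.06, adjusted p = 8.83e-05) and WT (-0.61 ± 0.06, 1.82e-05).

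Among the leukotriene genes, Alox5 fell by 0.62 ± 0.07 in Ex3a OVX, 0.43 ± 0.07 in ERKO OVX, 0.90 ± 0.05 in KO and 1.13 ± 0.05 in WT, with adjusted p of 0.000139, 0.00132, 2.83e-07 and 4.22e-08. Alox5ap fell by 0.62 ± 0.05, 0.46 ± 0.05, 0.56 ± 0.03 and 0.37 ± 0.03 in the same arms, with adjusted p of 1.49e-05, 0.000109, 6.19e-07 and 8.86e-06. Lta4h fell in ERKO OVX (-0.24 ± 0.06, 0.0127), KO (-0.13 ± 0.04, 0.0338) and WT (-0.29 ± 0.04, 0.000295). Its call in KO was lost without KO agonist replicate 1 (-0.06) and without KO vehicle replicate 1 (-0.12) or 2 (-0.14), as well as with no filter on low values (0.0909) and without trend and robust in limma (0.0577), in a range of 0.00291 to 0.259. In Ex3a OVX Lta4h differed by 0.16 ± 0.06 with an adjusted p of 0.0728, which was 0.0399 without agonist replicate 1 and 0.00419 to 0.157 over all alternatives. Ltc4s fell in both ovariectomized arms, by 0.25 ± 0.07 in Ex3a OVX (0.0266) and 0.49 ± 0.07 in ERKO OVX (0.000887), and rose in WT (0.19 ± 0.05, 0.0120). In KO its log2 difference was 0.08 ± 0.05 (0.219). The WT call was lost without agonist replicate 2 (0.0593) or vehicle replicate 1 (0.0933), with no filter on low values (0.0571) and with quantile normalization (0.0624), with 0.00235 to 0.0933 over all alternatives. The KO value was 0.17 (0.0130) without KO vehicle replicate 2, and 0.0130 to 0.931 was the range of its adjusted p.

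**Figure D2:**
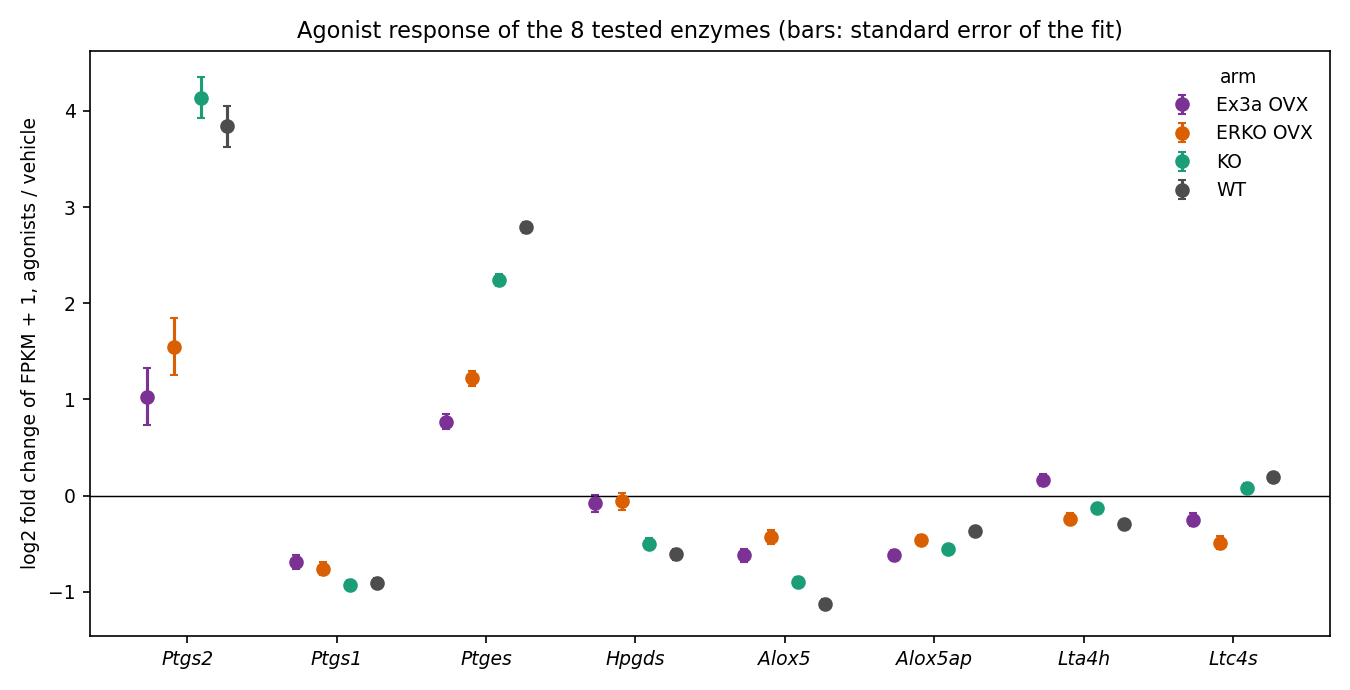
Log2 fold change of FPKM + 1, agonist over vehicle, of the 8 tested genes in the 4 arms; bars are the standard error of the limma fit, and the ovariectomized arms rest on 1 averaged sample per group. Ptgs2 and Ptges lie above 0 in every arm, with values of 1.03 and 0.77 in Ex3a OVX and 3.84 and 2.79 in WT, and Ptgs1, Alox5 and Alox5ap lie below 0 in every arm.

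**Figure D3:**
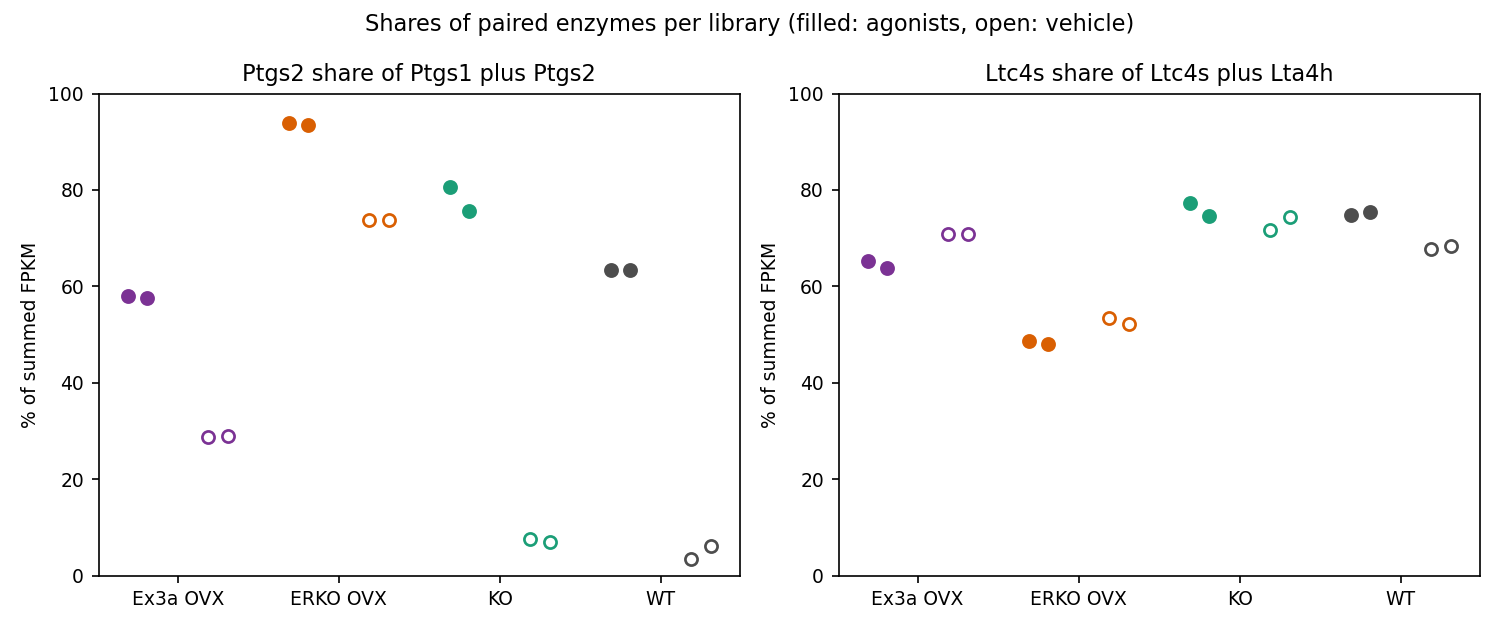
Percent of the summed FPKM of Ptgs1 and Ptgs2 that was Ptgs2 (left), and of Ltc4s and Lta4h that was Ltc4s (right), in each library. The Ptgs2 share spans 3.49% in a WT vehicle library to 93.8% in an ERKO OVX agonist library, and the Ltc4s share is lowest in ERKO OVX.

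The balance of the 2 cyclooxygenases followed from these levels. Ptgs2 made up 58.1 and 57.6% of the summed Ptgs1 and Ptgs2 FPKM with agonists and 28.7 and 29% with vehicle in Ex3a OVX, and 93.8 and 93.5% with agonists and 73.7 and 73.8% with vehicle in ERKO OVX. It made up 80.6 and 75.7% with agonists and 7.65 and 6.92% with vehicle in KO, and 63.4 and 63.3% with agonists and 3.49 and 6.1% with vehicle in WT. Ptgs2 was thus the larger of the pair in all agonist groups and, without agonists, in ERKO OVX alone. Of the summed Ltc4s and Lta4h FPKM, Ltc4s made up 48 to 53.4% in ERKO OVX libraries and 63.9 to 77.2% in the other 12. The shares were not tested.

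KO cells had less Ptgs1, Hpgds, Alox5 and Alox5ap than WT cells in both treatments, and more Ltc4s. Ptgs2 did not pass the test in either treatment. Of the 8 tested genes, 2 were higher and 4 lower in KO with agonists, where 27.2% of all tested genes were higher and 27.6% lower. With vehicle 2 were higher and 4 lower (31.5% and 28.7% of all tested genes). With agonists Ptgs1 was 1.80-fold lower (log2 fold change -0.85 ± 0.05, adjusted p = 4.23e-07) and with vehicle 1.78-fold lower (-0.83 ± 0.05, 3.92e-07). Hpgds was also lower, with log2 fold changes of -0.57 ± 0.06 with agonists (3.38e-05) and -0.67 ± 0.06 with vehicle (8.07e-06). Alox5ap differed by -0.73 ± 0.03 with agonists (9.77e-08) and -0.55 ± 0.03 with vehicle (5.57e-07), and Alox5 by -0.34 ± 0.05 (0.000234) and -0.58 ± 0.05 (4.71e-06). Ltc4s was higher by 0.24 ± 0.05 with agonists (0.00352) and 0.34 ± 0.05 with vehicle (0.000308).

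The prostaglandin E2 synthase Ptges differed by -0.04 ± 0.06 with agonists (0.597, 95% interval -0.17 to 0.09) and was higher in KO with vehicle (0.51 ± 0.06, 4.29e-05). Lta4h was higher in KO with agonists (0.17 ± 0.04, 0.00813). Without KO agonist replicate 2 this difference was 0.10 and its call was lost (0.0579, in a range of 0.000908 to 0.0579 over all alternatives). Lta4h differed by 0.01 ± 0.04 with vehicle (0.910). Ptgs2 differed by 0.17 ± 0.21 with agonists (0.544) and -0.12 ± 0.21 with vehicle (0.651). Its vehicle value rests on the spread of WT: it was -0.43 (adjusted p = 0.00287) without WT vehicle replicate 1 and 0.18 (0.101) without WT vehicle replicate 2, in a range of adjusted p of 0.00287 to 0.827. Platelet and megakaryocyte markers, a type known for Ptgs1, summed to 126 to 145 FPKM in KO and 1080 to 1314 FPKM in WT over 5 genes. Of these only Pf4 and Ppbp reached 1 FPKM in every library, Gp9 and Itga2b had group means under 1 FPKM, and Gp1bb was at 0 in KO vehicle libraries. Macrophage markers (9 genes, all at 1 FPKM or more in every library) summed to 1126 to 1397 FPKM in KO and 1775 to 2026 FPKM in WT, and the complement chain C1qb had group means of 13.7 and 19.5 FPKM in KO and 238 and 294 FPKM in WT. The macrophage and monocyte gene Cd14 went the other way, with group means of 838 and 529 FPKM in KO and 724 and 371 FPKM in WT. Their part in the lower Ptgs1 and Hpgds was not tested.

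**Figure D4:**
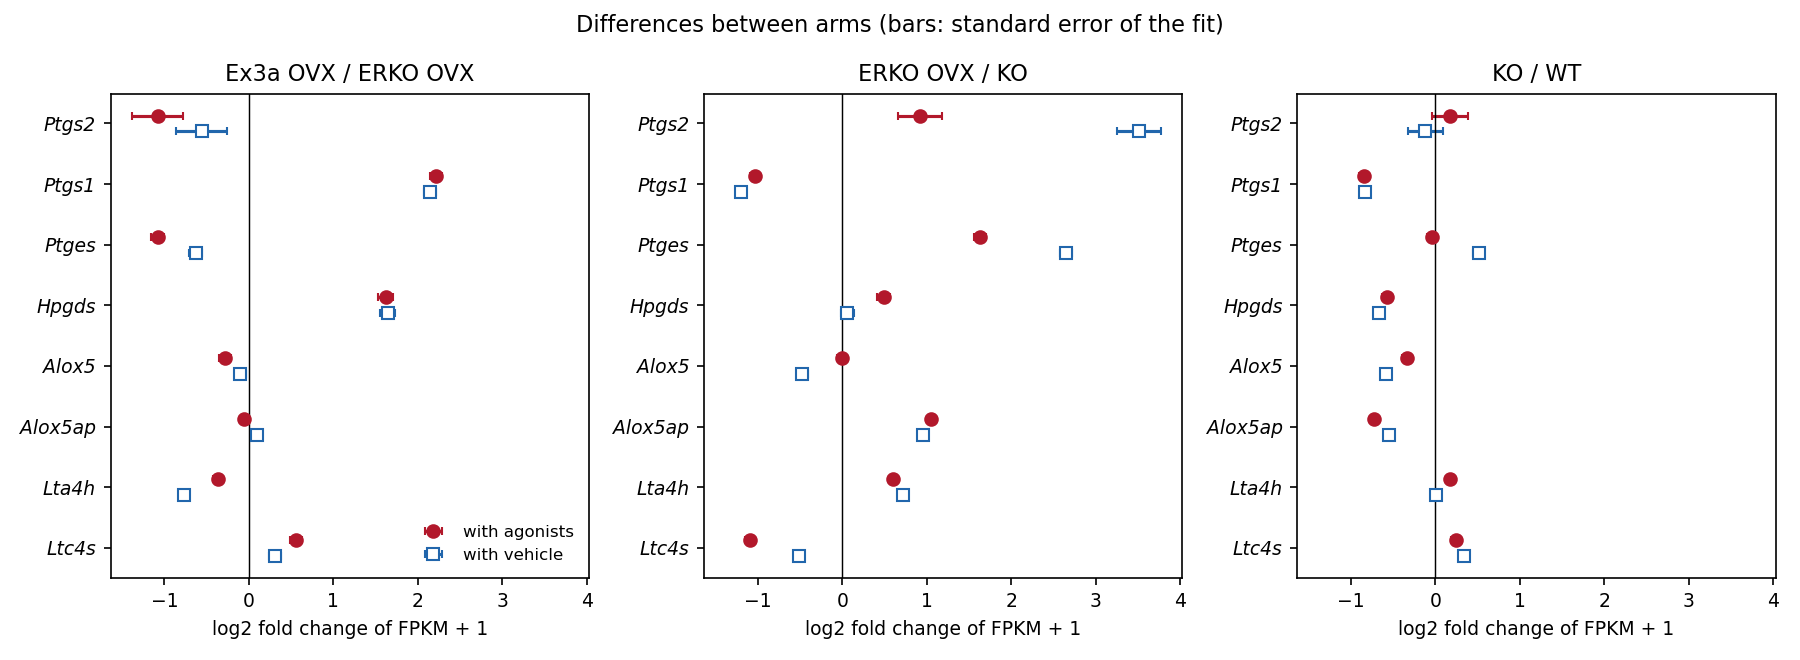
Log2 fold change of FPKM + 1 between arms, with agonists (filled circles) and vehicle (open squares), for Ex3a OVX over ERKO OVX, ERKO OVX over KO and KO over WT; bars are the standard error of the limma fit. Ptgs1 lies near 2 in Ex3a OVX over ERKO OVX and below 0 in the other 2 comparisons, and the largest values are those of Ptgs2 and Ptges in ERKO OVX over KO with vehicle, at 3.51 and 2.65.

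Between the ovariectomized arms, Ex3a OVX cells had more Ptgs1 and Hpgds and less Ptges and Lta4h than ERKO OVX cells in both treatments. Ltc4s was also higher in Ex3a OVX in both treatments. With agonists 3 of the 8 tested genes were higher and 4 lower (32.1% and 30.6% of all tested genes), and with vehicle 3 were higher and 2 lower (29.2% and 26.1%). Ptgs1 was 4.64-fold higher with agonists (2.21 ± 0.07, adjusted p = 6.29e-09) and 4.41-fold higher with vehicle (2.14 ± 0.07, 7.54e-09). Hpgds was 3.08-fold higher with agonists (1.62 ± 0.09, 2.07e-07) and 3.11-fold higher with vehicle (1.64 ± 0.09, 2.12e-07). Ptges differed by -1.08 ± 0.08 with agonists (2.88e-06) and -0.63 ± 0.08 with vehicle (0.000142), and Lta4h by -0.37 ± 0.06 (0.000538) and -0.77 ± 0.06 (3.83e-06). Ltc4s was higher by 0.56 ± 0.07 with agonists (0.000126) and 0.31 ± 0.07 with vehicle (0.00582).

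Ptgs2 was lower in Ex3a OVX with agonists (-1.08 ± 0.30, adjusted p = 0.0288), a call lost with 0.1 FPKM added (0.0634) or with a replicate block (0.0527), where all alternatives gave 9.52e-10 to 0.0634. With vehicle it differed by -0.56 ± 0.30 (0.179, and 1.19e-07 to 0.270 over the alternatives). Alox5 was lower with agonists (-0.28 ± 0.07, 0.00516) and differed by -0.10 ± 0.07 with vehicle (0.266). Alox5ap differed by -0.06 ± 0.05 with agonists (0.332), which was -0.24 (0.00287) with quantile normalization in a range of 0.00287 to 0.612, and by 0.10 ± 0.05 with vehicle (0.0978), which was 0.14 (0.0358) without Ex3a OVX vehicle replicate 1, in a range of 0.00677 to 0.257. Platelet markers summed to 521 to 811 FPKM in Ex3a OVX and 69.7 to 78 FPKM in ERKO OVX, a gap that was nearly all Pf4, with group means of 515 and 792 FPKM in Ex3a OVX and 69.2 and 64.7 FPKM in ERKO OVX. Those of Ppbp were 7.68 and 16.2 FPKM in Ex3a OVX and 5.99 and 6.02 FPKM in ERKO OVX, and Itga2b went the other way, at 0.245 and 0.248 FPKM in Ex3a OVX and 0.577 and 0.693 FPKM in ERKO OVX. Macrophage markers summed to 4079 to 4875 FPKM in Ex3a OVX and 3203 to 3513 FPKM in ERKO OVX. Group means of C1qb were 306 and 389 FPKM in Ex3a OVX and 8.02 and 11.7 FPKM in ERKO OVX, while those of Cd14 were 1510 and 1120 FPKM in Ex3a OVX and 1740 and 1440 FPKM in ERKO OVX and those of Cd68 757 and 851 FPKM in Ex3a OVX and 743 and 838 FPKM in ERKO OVX. Neutrophil and precursor markers (9 genes, Retnlg at 0 in both arms) summed to 283 to 298 FPKM in Ex3a OVX and 1140 to 1292 FPKM in ERKO OVX, most of it S100a8 and S100a9. Ltf of that list went the other way, with group means of 1.05 and 2.08 FPKM in Ex3a OVX and 0.894 and 1.25 FPKM in ERKO OVX. Those of Cxcr2 were 0.107 and 0.138 FPKM in Ex3a OVX and 0.104 and 0.295 FPKM in ERKO OVX. The part of these cell types in the differences was not tested.

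The ERKO OVX and KO arms share the ERα short source label and differ in ovariectomy with estradiol and in depth. ERKO OVX cells had more Ptgs2, Ptges, Alox5ap and Lta4h and less Ptgs1 and Ltc4s than KO cells in both treatments. Of the 8 tested genes, 5 were higher and 2 lower with agonists (40.1% and 38.5% of all tested genes) and 4 were higher and 3 lower with vehicle (41.0% and 39.9%), so most of the table differed as well. Ptgs2 was 1.89-fold higher with agonists (0.92 ± 0.26, adjusted p = 0.0240) and 11.4-fold higher with vehicle (3.51 ± 0.26, 9.39e-05). The agonist call was lost without KO agonist replicate 1 (1.04, 0.0507) or 2 (0.80, 0.0968) and with 0.1 FPKM added (0.0551), in a range of 0.000299 to 0.0968. Ptges was 3.10-fold higher with agonists (1.63 ± 0.07, 1.76e-08) and 6.27-fold higher with vehicle (2.65 ± 0.07, 5.90e-10). Ptgs1 differed by -1.03 ± 0.06 with agonists (1.17e-07) and -1.20 ± 0.06 with vehicle (3.24e-08).

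On the leukotriene side, Alox5ap was higher by 1.05 ± 0.04 with agonists (6.83e-09) and 0.96 ± 0.04 with vehicle (1.13e-08), and Lta4h by 0.60 ± 0.05 (2.85e-06) and 0.72 ± 0.05 (6.57e-07). Ltc4s differed by -1.09 ± 0.06 with agonists (1.39e-07) and -0.51 ± 0.06 with vehicle (3.70e-05). Alox5 differed by 0.00 ± 0.06 with agonists (0.992, 95% interval -0.13 to 0.13) and was lower with vehicle (-0.47 ± 0.06, 4.21e-05). Hpgds was higher with agonists (0.49 ± 0.08, 0.000168) and differed by 0.06 ± 0.08 with vehicle (0.496), which was 0.21 (0.0283) with quantile normalization, in a range of 0.0283 to 0.864. Basophil and mast cell markers (13 genes) summed to 93.4 to 126 FPKM in ERKO OVX and 2.85 to 4.74 FPKM in KO, with the mast cell tryptase Tpsab1 at 0 in both ERKO OVX groups. Neutrophil and precursor markers summed to 1140 to 1292 FPKM in ERKO OVX and 95.7 to 119 FPKM in KO, most of it S100a8 and S100a9. Of that list Retnlg was at 0 in ERKO OVX, with group means of 0.0254 and 0.0757 FPKM in KO. Those of Cxcr2 were 0.104 and 0.295 FPKM in ERKO OVX and 0.153 and 0.243 FPKM in KO. The rest of that list was higher in ERKO OVX. Macrophage markers summed to 3203 to 3513 FPKM in ERKO OVX and 1126 to 1397 FPKM in KO. Against the macrophage sum, C1qb had group means of 8.02 and 11.7 FPKM in ERKO OVX and 13.7 and 19.5 FPKM in KO. Whether these cells bear on the differences was not tested.

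The agonist response itself differed between arms for some of these genes, by a test of the difference of 2 responses. The arms of each such pair share no libraries. Between Ex3a OVX and ERKO OVX, 1 of the 8 genes had a higher and 1 a lower response (16.7% and 14.7% of all tested genes), Lta4h by 0.40 ± 0.09 (adjusted p = 0.00794) and Ptges by -0.45 ± 0.12 (0.0171). The Ptges call was lost with no filter on low values (0.0726, in a range of 4.01e-06 to 0.0726 over all alternatives). Between ERKO OVX and KO, 2 had a higher and 3 a lower response (11.4% and 12.4%). Ptgs2 differed there by -2.59 ± 0.37 (0.00911), the 4th largest absolute difference of all tested genes, and Ptges by -1.02 ± 0.10 (0.000174). Ltc4s differed by -0.58 ± 0.09 (0.00199), Alox5 by 0.47 ± 0.08 (0.00400) and Hpgds by 0.43 ± 0.11 (0.0166). The Hpgds call was lost with no filter on low values (0.0563, in a range of 0.00188 to 0.0563).

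Between KO and WT, 2 of the 8 genes had a lower response (4.66% of all tested genes) and 0 a higher one (2.30%). Higher responses made up 33.0% of all calls there, and 45.8% with quantile normalization. Ptges differed by -0.55 ± 0.08 (0.00446, and 0.0524 with no filter on low values, in a range of 0.000138 to 0.0524) and Alox5ap by -0.19 ± 0.05 (0.0497). The Alox5ap call was lost in most fits that left out 1 KO or WT library: without KO agonist replicate 1, either KO vehicle replicate, either WT agonist replicate or either WT vehicle replicate (-0.21 to -0.14), and its adjusted p was 0.0176 to 0.171 over all alternatives. Ptgs2 differed by 0.30 ± 0.30 (0.646), and by 0.61 (0.0259) without WT vehicle replicate 1, with 0.0259 to 0.967 over all alternatives. Without KO agonist replicate 1, Alox5 differed by 0.32 (0.0142), against 0.24 ± 0.07 (0.0714) with it and 0.0107 to 0.177 over all alternatives. Lta4h likewise differed by 0.23 (0.0308) without that library, against 0.16 ± 0.06 (0.155) with it and 0.0308 to 0.344 over all alternatives. Ptgs1 differed by -0.02 ± 0.07 between KO and WT (0.903), by 0.07 ± 0.10 between Ex3a OVX and ERKO OVX (0.614) and by 0.17 ± 0.08 between ERKO OVX and KO (0.179). The last was 0.25 (0.0187) without KO agonist replicate 2, with 0.0187 to 0.347 over all alternatives.

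A list of 63 other genes of arachidonate release, terminal synthesis, other lipoxygenases, conversion and transport, and receptors was examined beside the 10 genes, and 40 of the list were tested. None of its 5 other lipoxygenases reached the level for testing. With agonists, 5 of the 40 rose and 12 fell in Ex3a OVX (19.1% and 18.2% of all tested genes), 6 rose and 17 fell in ERKO OVX (18.4% and 19.2%), 8 rose and 22 fell in KO (25.9% and 25.3%), and 10 rose and 18 fell in WT (30.8% and 27.1%). Their median log2 fold change lay between -0.13 and -0.00 in the 4 arms, against 0.00 to 0.02 over all tested genes. Fpr2, a formyl peptide receptor that also binds lipoxin A4, rose in all 4 arms, by 0.56 in Ex3a OVX, 0.42 in ERKO OVX, 1.03 in KO and 1.64 in WT. Daglb, a diacylglycerol lipase, fell by 0.75, 0.66, 1.08 and 1.41 in the same arms, and Ltb4r1, the high-affinity receptor of leukotriene B4, fell by 0.63, 0.85, 0.85 and 0.90. Tbxas1, the thromboxane synthase that also uses prostaglandin H2, fell by 0.44 in Ex3a OVX, 0.56 in ERKO OVX, 0.82 in KO and 0.92 in WT.

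Between arms, the gene of the list with the largest difference was Ptgr1, a reductase that inactivates prostaglandins and leukotriene B4. Its mean was 42.8 FPKM with agonists and 31.6 FPKM with vehicle in Ex3a OVX, 212 and 229 FPKM in ERKO OVX, 55.1 and 57.1 FPKM in KO and 173 and 166 FPKM in WT, each with agonists and then vehicle. It was lower in KO than in WT (-1.63 with agonists, adjusted p = 4.20e-11, and -1.52 with vehicle, 5.46e-11) and also lower in Ex3a OVX, set against ERKO OVX (-2.28, 1.26e-10, and -2.82, 3.57e-11). In KO against WT 4 of the 40 were higher and 23 lower with agonists (27.2% and 27.6% of all tested genes), and 6 higher and 24 lower with vehicle (31.5% and 28.7%). In Ex3a OVX against ERKO OVX 20 were higher and 13 lower with agonists (32.1% and 30.6%), and 16 higher and 11 lower with vehicle (29.2% and 26.1%). In ERKO OVX against KO 27 were higher and 6 lower with agonists (40.1% and 38.5%), and 27 higher and 7 lower with vehicle (41.0% and 39.9%). The agonist response itself was higher for 6 and lower for 6 of the 40 in Ex3a OVX against ERKO OVX (16.7% and 14.7% of all tested genes), higher for 5 and lower for 4 in ERKO OVX against KO (11.4% and 12.4%), and higher for 2 and lower for 3 in KO against WT (2.30% and 4.66%). Pla2g7, which hydrolyses platelet-activating factor, was lower in KO than in WT (-1.19 with agonists, 1.22e-09, and -1.07 with vehicle, 2.61e-09). Cysltr1, a receptor of the cysteinyl leukotrienes, was higher in Ex3a OVX cells, against ERKO OVX cells (1.32 with agonists, 1.29e-06, and 1.27 with vehicle, 1.87e-06).

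Across the 8 group means of log2(FPKM + 1), Ptgs2 and Ptges followed each other with Pearson's r of 0.9683, while Ptgs2 and Alox5 had r of -0.8862. These are descriptions over 8 points that share arms, treatments and depth. The tested genes outside the 10 most like Ptgs2 were Tnf (r = 0.9960), Adhfe1 (0.9852) and Ccl3 (0.9810). For Ptges they were Tnfrsf1b (0.9943), Cdc42ep2 (0.9907) and Mtdh (0.9890), and for Ptgs1 Lgmn (0.9928), Sap18 (0.9863) and Hlx (0.9818). Hpgds was most like Scamp5 (0.9986), Fcgr4 (0.9918) and Tifab (0.9890). The nearest genes were Mical2 (0.9967), Tns1 (0.9887) and Hnrnpll (0.9798) for Alox5, and D1Ertd622e (0.9808), Lhfpl2 (0.9738) and Fxyd5 (0.9735) for Alox5ap. They were Gipc2 (0.9753), Ckb (0.9630) and Arl3 (0.9621) for Lta4h, and Rps28 (0.9649), Srsf3 (0.9631) and Csad (0.9545) for Ltc4s.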

How the data were processed

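Expression was measured by paired-end RNA-seq of TruSeq libraries, per the labels' protocols, which state at least 50 M (mega) reads per sample and mention triplicates. Each group is represented here by 2 libraries. The authors deposited FPKM in 1 table of 24001 rows. The tools cutadapt, FastQC, STAR, HTSeq and DESeq2 and the build mm10 are listed, without versions, in the submitters' processing notes. The sources used here do not name the program behind the FPKM. Since FPKM is scaled by length and library total, fragment counts are lost. Summed FPKM was 612322 to 696321 in ovariectomized and 481738 to 522287 in unoperated libraries. Depth was estimated from the steps of low values in 2972 single-transcript genes, and intervals from it cover counting error only.

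The 10 genes, the pathway list and the marker lists were chosen with earlier results of these data known. A gene each of the platelet and macrophage marker lists is not reported here and was left out of the sums. Of the list genes, up to 6 per comparison past the threshold with the largest change could be named, and the 3 genes most alike in pattern were named by Pearson's r. The whole table was fitted. Small structural and micro RNAs (1230 rows) were left out, 5 zeros among otherwise high values (5 FPKM or more) were taken as missing, 1 FPKM in at least 2 libraries was required, and 11346 genes were tested (11345 in comparisons with KO agonist libraries). limma 3.58.1 in R 4.3.3 (trend, robust) took log2(FPKM + 1) and a coefficient for each group. Two-sided p-values were adjusted (Benjamini-Hochberg) over all genes of a comparison, with a threshold of 0.05.

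In genes with 5000 or more estimated fragments, the variance within a pair over sampling variance was 0.778 to 0.934 in ovariectomized groups and 1.98 to 5.29 in unoperated ones. Ovariectomized pairs were therefore averaged, leaving 12 samples, and the 4 residual degrees of freedom came from unoperated groups alone. Replicate numbers did not pair the samples. Alternatives were other pseudocounts, no filter, rescaling, quantile normalization, all libraries singly, a replicate block, subsets of arms, limma without trend and robust, and each library left out in turn. A fit with a library left out was read only for comparisons that use the group of that library. In comparisons among ovariectomized groups it removed a library of an averaged pair and kept all unoperated libraries. It therefore could not probe the spread that sets the p-values of those comparisons. Coordinates are RefSeq gene spans on GRCm38.p6 (mm10). The method was tested on simulated data with equal noise in all 16 libraries, and only the WT and KO responses were read. The ovariectomized comparisons and the response differences were not covered by it.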

Additional observations from a re-analysis of the deposited data

Results flagged for a closer look

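The genes below were picked out because their agonist responses in 2 arms differed by a test of the difference itself (limma, adjusted over all tested genes). Between Ex3a OVX and ERKO OVX, the responses differed by -0.45 for Ptges and 0.40 for Lta4h on the log2 scale. Ptges rose in both arms, by 0.77 in Ex3a OVX and 1.22 in ERKO OVX, while Lta4h fell in ERKO OVX and did not pass the test in Ex3a OVX. Between ERKO OVX and KO, the responses differed by -2.59 for Ptgs2, -1.02 for Ptges, -0.58 for Ltc4s, 0.47 for Alox5 and 0.43 for Hpgds. For Ptgs2 and Ptges the agonist groups of ERKO OVX and KO were 1.89- and 3.10-fold apart in FPKM + 1, and the vehicle groups 11.4- and 6.27-fold apart. Between KO and WT, the responses differed by -0.55 for Ptges and -0.19 for Alox5ap, the second with an adjusted p of 0.0497.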

How the results depend on the processing

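Of 1536 recomputed values, 1442 kept their direction and side of the threshold, 42 passed it only under the alternative, 32 lost it and 20 changed sign. The number of the 8 genes called was within 1.5 times that reported in every comparison except 2. For the response difference of KO and WT (2 genes) it was 1 with 0.1 FPKM added, with median-of-ratios rescaling, with a replicate block and with limma without trend and robust, 0 with no filter on low values (Ptges 0.0524, Alox5ap 0.156), and 1 to 3 with a library left out. For that of Ex3a OVX and ERKO OVX (2 genes) it was 1 with no filter, 4 with 16 libraries singly, with or without a replicate block, and 5 with the 8 ovariectomized libraries only, an alternative chosen after seeing the data. Over all tested genes, these differences gave 404 calls with no filter against 790, and 5534 (5502 with a replicate block) with 16 libraries singly against 3560. The response of Ptgs2 in Ex3a OVX, 1.03 in these fits except 0.94 with 5 FPKM added, passed the threshold with 16 libraries singly (adjusted p = 0.000332), ovariectomized libraries only (5.90e-09), 5 FPKM added (0.00526), no filter (0.0435) and without trend and robust (0.0180). The fall of Ltc4s in Ex3a OVX was not called with no filter (0.0948) or without trend and robust (0.0572), in a range of 5.06e-05 to 0.0948. The cause of these changes was not tested.

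Values that changed sign were not called in the reported fit. With 5 FPKM added they were Alox5 in ERKO OVX against KO with agonists (-0.00) and the response differences of Ptgs1 between KO and WT (0.03) and between Ex3a OVX and ERKO OVX (-0.07). With quantile normalization they were the response differences of Ptgs1 between KO and WT (0.01) and of Hpgds between Ex3a OVX and ERKO OVX (0.04). With a library left out, sign changes occurred in the ranges -0.01 to 0.17 (Ltc4s response in KO), -0.43 to 0.18 (Ptgs2, KO against WT with vehicle), -0.01 to 0.03 (Lta4h, the same), -0.09 to 0.01 (Ptges, KO against WT with agonists), -0.08 to 0.08 (Alox5, ERKO OVX against KO with agonists), -0.01 to 0.61 and -0.10 to 0.06 (response differences of Ptgs2 and Ptgs1, KO minus WT) and -0.07 to 0.05 (Hpgds, Ex3a OVX minus ERKO OVX).

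Replicate numbers did not pair the samples: the deviations of same-numbered libraries had correlations of -0.21 to 0.13 between groups. Besides the counts above, the replicate block ended the calls of Ptgs2 in Ex3a OVX against ERKO OVX with agonists and of Alox5ap in KO minus WT, and no other. With the KO and WT agonist numbers crossed, added after seeing the data, 2 genes were higher and 4 lower, as reported. Hpgd and Alox15 lay too near 0 for a test at this depth.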
